A study of Adonis amurensis with 6 samples.

Results

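Photosystem I (PSI) and photosystem II (PSII) subunits were studied in the floral organs of Adonis amurensis, a perennial that flowers before its leaves unfold. The members are the unigenes whose best Swiss-Prot match names Photosystem I, Photosystem II or an oxygen-evolving enhancer, with chlorophyll a-b binding names left out. The rule found 90 of 190353 unigenes, and of these 33 were named as PSI subunits, 24 as PSII reaction-centre or small subunits, 14 as oxygen-evolving enhancers, 3 as the PSII 22 kDa protein PsbS and 16 as assembly factors. They fell into 29 subunits or factors. A total of 74 unigenes matched nucleus-encoded proteins and 16 matched plastid-encoded proteins.

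The transcriptome was sequenced at 6 stages of flowering, with 1 library per stage and no replicate, on plants kept in an open field with no treatment recorded. In order of development, the stages were flower bud differentiation (FBD), young alabastrum (YA) and visible color alabastrum (VCA), labelled as flower buds, followed by the early flowering (EFS), full bloom (FBS) and, last, the senescing flower (SFS), labelled as flowers. Genotype, plant age and the number of plants in each library are not given in the sources read. Differences between stages could not be set against the spread between plants, so no test was made, and "higher" or "lower" below compares libraries. Values are FPKM, which counts fragments relative to unigene length and to the mapped reads of a library, and their read depth is unknown.

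Both photosystems are complexes of the thylakoid membrane in chloroplasts. PSII takes electrons from water and passes them through the cytochrome b6f complex and plastocyanin to PSI, which reduces ferredoxin. In green plants the pigment-binding reaction-centre proteins are encoded in the plastid genome, whereas most of the small and extrinsic subunits are encoded in the nucleus and imported. Young petals and sepals often hold chloroplasts, which can turn into other plastids as the flower opens.

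The labelled tissue was checked against marker lists. The 49 floral organ identity unigenes had a summed FPKM of 1400 at YA, 1339 at VCA, 1062 at EFS, 981 at FBS and 738 at SFS, and 427 at FBD. The most abundant unigene of the list, CL7507.Contig2, had the B-class protein PMADS 2 as its best Swiss-Prot match. It had 824, 794, 684, 702 and 480 FPKM in YA, VCA, EFS, FBS and SFS, against 3.38 FPKM in FBD. The paper instead lists this unigene as homologous to AGL6. By qPCR the paper found its highest level in SFS, where its FPKM was the lowest of YA to SFS. The 144 pollen and anther unigenes summed to 2097 FPKM at YA, 2276 at VCA, 4390 at EFS, 3322 at FBS, 2751 at SFS and 654 at FBD. All of these lists were detected in the labelled flowers and buds, and the anther-specific LAT52 (Unigene23851) was highest in EFS, at 1343 FPKM. The summed FPKM of the whole library lay between 724656 in SFS and 755345 in VCA, and the 10 most abundant unigenes took between 2.48% of it in FBD and 7.94% in SFS. In whole flowers, fewer cells of a type and less RNA per cell cannot be told apart. The part of a changing organ make-up in the values below was not tested.

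Most of the FPKM of the members came from few unigenes. Over YA to SFS, 41 of the 90 reached an FPKM of 1 in at least 1 library, 27 reached 10 and 22 reached 50, while 27 were listed at 0 in all of these libraries. The contigs of a cluster, named CL, share reads that RSEM divides among them, so levels were summed over the unigenes of a subunit. Of the 29 subunits, 20 had a summed FPKM of at least 10 in YA to SFS, and these are described by stage. FBD, in which other unigenes carried nearly all of the FPKM, is described apart at the end.

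Transcripts of both photosystems were most abundant in the senescing flower. The 33 PSI unigenes had a summed FPKM of 1658 at YA, 1932 at VCA, 2253 at EFS, 1660.0 at FBS and 3417 at SFS. The 38 PSII unigenes, oxygen-evolving enhancers included, had 2097 at YA, 2548 at VCA, 2468 at EFS, 1741 at FBS and 4168 at SFS. Both sums were lower in FBS than in EFS, to 0.737-fold for PSI and 0.705-fold for PSII, and were higher in SFS than in FBS by 2.06-fold and 2.39-fold. Compared with YA, SFS was 2.06-fold higher for PSI (1.04 on the log2 scale) and 1.99-fold higher for PSII (0.99). All members together made up 0.536% of the FPKM at YA, 0.631% at VCA, 0.688% at EFS, 0.514% at FBS and 1.10% at SFS.

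**Figure D1:**
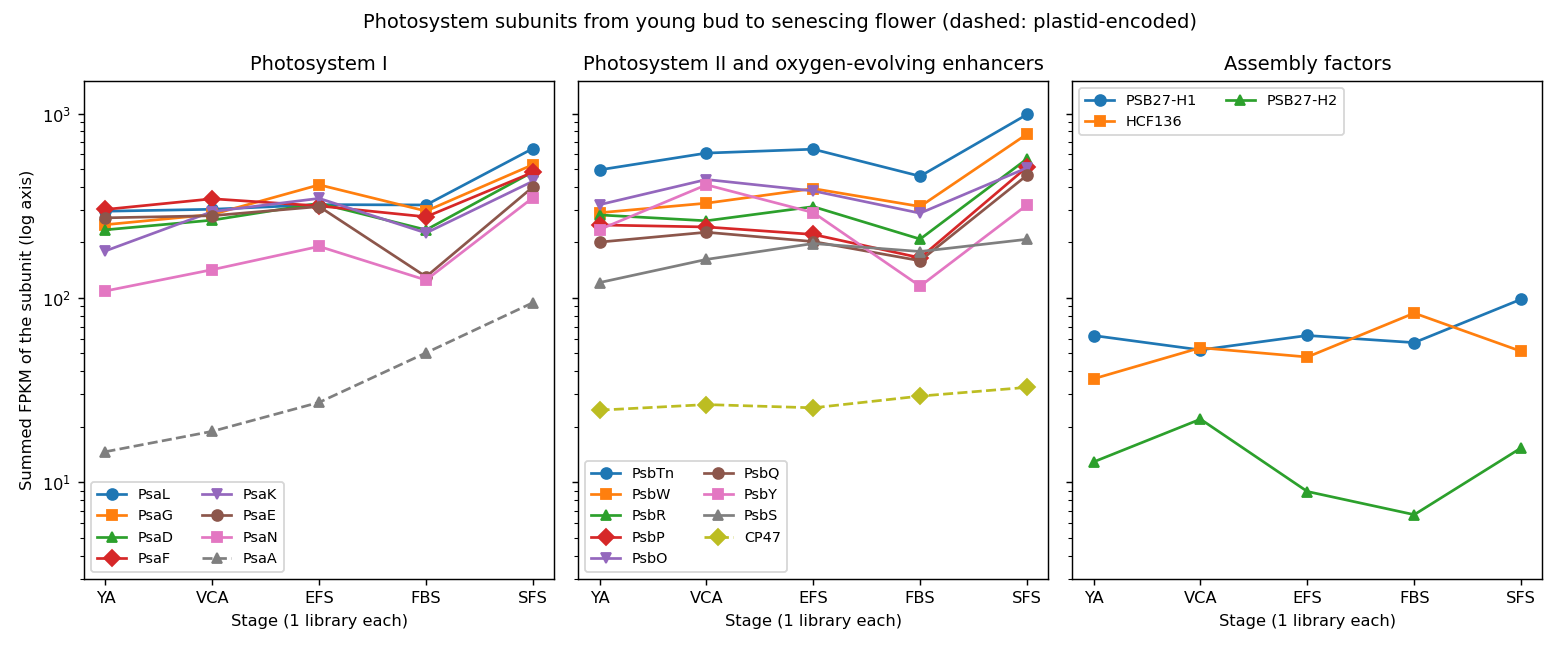
Summed FPKM of the named subunits (vertical, log axis) of PSI, PSII and the assembly factors, in a panel each, for YA, VCA, EFS, FBS and SFS, with 1 library per stage and no error bars. Nucleus-encoded structural subunits lie between 109 and 988 FPKM, while PsaA and CP47, which are plastid-encoded, lie at 14.7 to 94.3 FPKM and 24.6 to 32.7 FPKM.

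The nucleus-encoded PSI subunits above 10 FPKM were each lower in FBS than in EFS and highest in SFS. PsaD and PsaE sit on the stromal side, where ferredoxin docks. PsaD had 234 FPKM at YA, 264 at VCA, 326 at EFS, 234 at FBS and 483 at SFS. PsaE had 272, 279, 313, 130 and 400 FPKM in the same order. PsaE was the lower of this pair in FBS, at 0.417-fold of its EFS level, and was then 3.07-fold higher in SFS than in FBS.

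PsaF, which faces the lumen and binds plastocyanin, had 302 FPKM at YA, 345 at VCA, 315 at EFS, 275 at FBS and 480.0 at SFS. Its SFS level was 1.59-fold that of YA. PsaN, another lumenal subunit, had 109 FPKM at YA, 142 at VCA, 190 at EFS, 125 at FBS and 350 at SFS. At 3.20-fold over YA, PsaN had the largest SFS to YA difference among the nucleus-encoded structural subunits. Most of it lay in CL13734.Contig1, which had 89.7, 115, 190, 75.0 and 290 FPKM in YA, VCA, EFS, FBS and SFS and was 3.24-fold higher in SFS than in YA. The other PsaN contig of that cluster, CL13734.Contig2, had 19.4, 27.6, 0.05, 49.99 and 59.2 FPKM, so the 2 contigs did not keep the same share from stage to stage.

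PsaG, PsaK and PsaL are membrane subunits at the edge of the complex. PsaG and PsaK hold the light-harvesting antenna, and PsaL takes part in docking of the mobile antenna of PSII. PsaG had 250 FPKM at YA, 284 at VCA, 410 at EFS, 296 at FBS and 528 at SFS. PsaK had 180 FPKM at YA, 294 at VCA, 347 at EFS, 225 at FBS and 429 at SFS. PsaL had 295 FPKM at YA, 303 at VCA, 321 at EFS, 319 at FBS and 646 at SFS. PsaL thus had nearly equal levels before SFS (0.996-fold in FBS over EFS) and was 2.02-fold higher in SFS than in FBS. The unigenes with the highest mean FPKM of the 5 leading PSI subunits were CL8214.Contig2 (PsaL), Unigene20524 (PsaG), CL22417.Contig1 (PsaF), CL27722.Contig1 (PsaD) and CL17861.Contig2 (PsaK).

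PsaA, which together with PsaB binds the reaction-centre chlorophyll P700 and is encoded in the plastid, followed another course. It had 14.7 FPKM at YA, 18.9 at VCA, 27.2 at EFS, 50.4 at FBS and 94.3 at SFS. Each stage was higher than the one before it, and FBS was 1.86-fold higher than EFS, where the nucleus-encoded PSI subunits were lower in FBS. SFS was 6.43-fold higher than YA. Nearly all of this FPKM was in CL7029.Contig7, with 12.2, 17.0, 21.8, 46.5 and 88.9 FPKM in the 5 stages, the member with the largest SFS to YA ratio (7.27-fold) among those with an FPKM of at least 10 in YA or SFS. PsaA was 0.893% of the summed FPKM of nucleus-encoded PSI subunits at YA, 0.989% at VCA, 1.22% at EFS, 3.13% at FBS and 2.84% at SFS. Whether the libraries were selected for poly(A) tails, which plastid transcripts mostly lack, is not given in the sources used, and levels of plastid-encoded genes rest on that step. PsaH stayed at 0.39 to 4.35 FPKM and the plastid-encoded PsaJ at 1.12 to 3.06 FPKM over YA to SFS. Unlike PsaA, PsaJ was lower in FBS (1.13 FPKM) than in EFS (3.06 FPKM), though at low levels. The PsaH value of SFS lay on weaker matches (E-values of 1.4e-09 and 1.2e-11) than the leading PsaH unigene of FBD (4.6e-62).

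In PSII, the nucleus-encoded small subunits were also highest in SFS, with PsbY as the exception. The 5 kDa protein (PsbTn), a lumenal subunit of little known role, was the most abundant of all subunits, with 495 FPKM at YA, 610 at VCA, 640 at EFS, 457 at FBS and 988 at SFS. PsbW, which takes part in holding the PSII supercomplex together, had 290 FPKM at YA, 326 at VCA, 392 at EFS, 313 at FBS and 773 at SFS. PsbR, the 10 kDa polypeptide needed in Arabidopsis for stable binding of the oxygen-evolving enhancers, had 282 FPKM at YA, 262 at VCA, 313 at EFS, 208 at FBS and 568 at SFS. The SFS level was 1.997-fold, 2.67-fold and 2.01-fold that of YA for the 5 kDa protein, PsbW and PsbR. Their leading unigenes were Unigene20506 (5 kDa protein), Unigene23949 (PsbW) and CL2012.Contig2 (PsbR).

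PsbY, a small membrane protein, had 235 FPKM at YA, 411 at VCA, 290 at EFS, 116 at FBS and 319 at SFS. It was highest in VCA and had the lowest FBS to EFS ratio of the 20 subunits, 0.399-fold. Its leading unigene, CL12833.Contig3, carried 38.1% of the sum, and its contigs did not move together. CL24826.Contig2 had 31.7, 103, 54.0, 4.20 and 66.3 FPKM in YA, VCA, EFS, FBS and SFS, whereas CL12833.Contig3 had 103, 137, 112, 60.5 and 110 FPKM. Unigene10575, the PsbY unigene with the lowest SFS to YA ratio among members of at least 10 FPKM, had 43.7, 7.74, 43.9, 8.12 and 36.8 FPKM. FBS was below EFS in each of these 3 unigenes, and the ratio of SFS to YA of Unigene10575 was -0.25 on the log2 scale. The other PsbY unigenes of YA to SFS differed in EFS and FBS. CL24826.Contig1 had 42.9 and 3.49 FPKM, CL12833.Contig2 had 28.8 and 28.5, and CL12833.Contig1 had 8.67 and 10.99.

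CP47 is the plastid-encoded inner antenna protein of PSII. Over YA, VCA, EFS, FBS and SFS it had 24.6, 26.4, 25.4, 29.4 and 32.7 FPKM, a 1.33-fold difference between SFS and YA. Its leading unigene, Unigene7097, had 11.0, 14.1, 13.3, 14.3 and 17.2 FPKM, and CL24242.Contig3 had 10.9, 11.7, 11.5, 13.7 and 15.1 FPKM. CP47 thus did not show the lower FBS level of the nucleus-encoded subunits, and FBS was 1.16-fold higher than EFS. PsbH, the other plastid-encoded PSII subunit detected after FBD, had 1.17, 3.87, 4.10, 4.56 and 5.26 FPKM. The reaction-centre protein D1 falls outside the rule, since its Swiss-Prot name is Photosystem Q(B) protein. No member had a best match named as the inner antenna CP43 or as PsaB of PSI.

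The 3 oxygen-evolving enhancers cover the manganese cluster that splits water on the lumenal side of PSII, and PsbO stabilizes that cluster. PsbO had 320 FPKM at YA, 439 at VCA, 380 at EFS, 288 at FBS and 507 at SFS. PsbP, which helps to retain calcium and chloride, had 249, 243, 221, 165 and 512 FPKM in the same order. PsbQ, which binds beside PsbP, had 201, 227, 202, 159 and 463 FPKM. All of them were lowest in FBS and highest in SFS. PsbP and PsbQ were 3.10-fold and 2.91-fold higher in SFS than in FBS, and PsbO was 1.76-fold higher. Compared with YA, SFS was 1.58-fold higher for PsbO, 2.06-fold for PsbP and 2.30-fold for PsbQ, and the summed enhancers were 1.93-fold higher. The leading unigenes were CL22342.Contig2 (PsbO), CL15860.Contig3 (PsbP) and CL26600.Contig2 (PsbQ).

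PsbS is not part of the reaction centre but senses lumen acidity and switches on the dissipation of excess light as heat. Its summed FPKM was 121 at YA, 162 at VCA, 197 at EFS, 179 at FBS and 208 at SFS, most of it in CL21447.Contig1. SFS was 1.72-fold higher than YA, and FBS was 0.905-fold of EFS.

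The 14 nucleus-encoded structural subunits, 7 of PSI and 7 of PSII, can be set side by side. FBS was lower than EFS in 14 of 14, with a median of 0.719-fold and a range of 0.399-fold (PsbY) to 0.996-fold (PsaL). SFS was higher than FBS in 14 of 14, with a median of 2.31-fold and a range of 1.74-fold (PsaF) to 3.10-fold (PsbP), and 10 of them reached 2-fold. SFS was also higher than YA in 14 of 14, by a median of 2.06-fold, and 9 reached 2-fold. VCA was higher than YA in 12, and EFS was higher than VCA in 9. The highest of the 5 stages was SFS in 13 and VCA in 1, and the lowest was FBS in 9 and YA in 5. The lower FBS level holds for FPKM as deposited and for 13 of 14 subunits after rescaling to the same total or to the median ratio of all unigenes. It turned after division by summed actin, which itself was 0.686-fold in FBS over EFS: only 5 of 14 subunits were then lower in FBS. The higher SFS level, against either FBS or YA, was found in 14 of 14 subunits under each of these scalings.

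**Figure D2:**
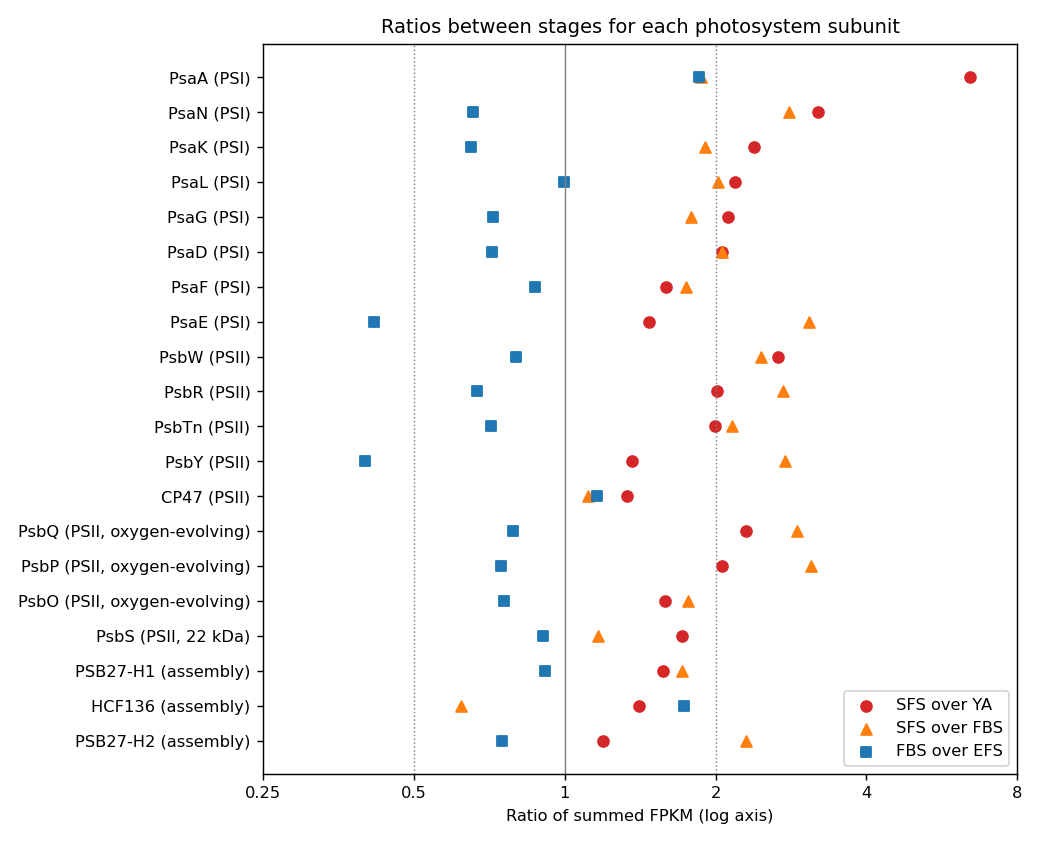
Ratios of summed FPKM (log2 axis) for each of the 20 named subunits in FBS over EFS, SFS over FBS and SFS over YA, 1 library per stage. SFS over YA is above 1 in 20 of 20 subunits, while FBS over EFS is above 1 only in PsaA, CP47 and HCF136.

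Among all 20 subunits, SFS was the highest stage in 17. The others were PsbY and PSB27-H2, both highest in VCA, and the assembly factor HCF136, highest in FBS. SFS exceeded YA in 20 of 20 subunits and reached 2-fold in 10, and it exceeded FBS in 19. FBS exceeded EFS in 3, PsaA, CP47 and HCF136, and was lower by 2-fold or more in PsaE and PsbY.

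PSI and PSII were compared within each library, where the ratio does not depend on how libraries are scaled. The ratio of summed PSI to summed PSII FPKM was 0.791 at YA, 0.758 at VCA, 0.913 at EFS, 0.954 at FBS and 0.820 at SFS. With the oxygen-evolving enhancers left out of PSII, the ratio was 1.25, 1.18, 1.35, 1.47 and 1.27. Whether PSI lay below or above PSII thus depended on the enhancers, while the ratio was highest in FBS either way. Between SFS and YA the log2 ratio differed by 0.05. With plastid-encoded subunits left out, the ratio was 0.793, 0.759, 0.912, 0.942 and 0.804. The oxygen-evolving enhancers amounted to 0.580 of the other PSII subunits at YA, 0.554 at VCA, 0.483 at EFS, 0.543 at FBS and 0.552 at SFS. The median SFS to YA ratio of the 7 nucleus-encoded subunits of PSI was 2.12-fold and that of the 7 of PSII was 2.01-fold, whereas SFS to FBS medians were 2.02-fold and 2.72-fold. No error can be given for these ratios.

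**Figure D3:**
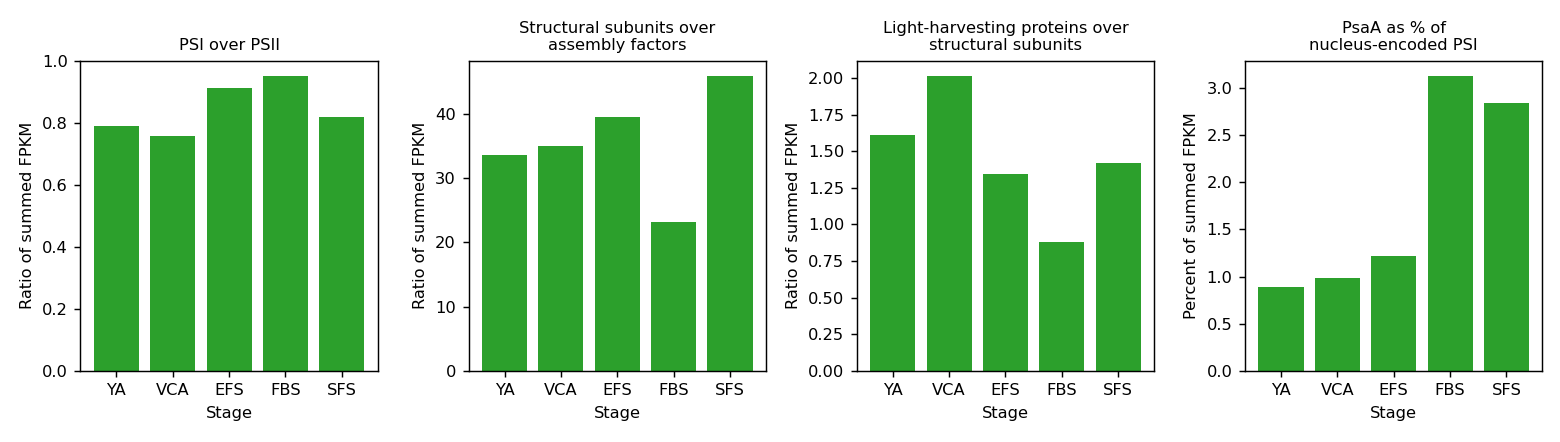
Bars give values within each library by stage, 1 library per stage: the ratios of summed FPKM of PSI over PSII, structural subunits over assembly factors and light-harvesting proteins over structural subunits, and PsaA as a percent of nucleus-encoded PSI. PSI over PSII stays between 0.758 and 0.954, structural over assembly lies between 23.2 in FBS and 45.9 in SFS, light harvesting over structural is lowest in FBS at 0.881, and PsaA is highest in FBS at 3.13%.

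Assembly factors, which help to build or repair the complexes without staying in them, were far less abundant, and their sum differed less between stages. The single factors differed about as much as the structural subunits, since the highest stage was 1.88-fold to 3.29-fold the lowest for the factors and 1.74-fold to 3.55-fold for the 14 nucleus-encoded structural subunits. Their summed FPKM was 112 at YA, 128 at VCA, 119 at EFS, 147 at FBS and 165 at SFS. SFS was 1.48-fold higher than YA (0.56 on the log2 scale), and FBS was 1.23-fold higher than EFS. HCF136 carried the FBS value, and without it the sum was 75.4, 74.3, 71.5, 63.9 and 114 FPKM, with FBS at 0.894-fold of EFS. Structural subunits, the sum of PSI and PSII, were 33.6-fold the assembly factors at YA, 35.0-fold at VCA, 39.6-fold at EFS, 23.2-fold at FBS and 45.9-fold at SFS. Without HCF136 the ratio was 49.8, 60.3, 66.0, 53.2 and 66.7, so its lowest stage was FBS with HCF136 and YA without it.

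HCF136, needed in Arabidopsis for assembly of the PSII reaction centre, had 36.4 FPKM at YA, 53.7 at VCA, 47.8 at EFS, 82.7 at FBS and 51.4 at SFS. It was 1.73-fold higher in FBS than in EFS and 0.621-fold in SFS over FBS, the opposite order of the enhancers. Unigene11497 carried 98.1% of this sum, and the 3 HCF136 contigs of cluster CL4156 were weak matches (E-values of 2.5e-06 to 3.7e-06) at up to 1.72 FPKM. PSB27-H1, which takes part in PSII repair, had 62.5, 52.3, 62.6, 57.2 and 98.3 FPKM in YA, VCA, EFS, FBS and SFS, with Unigene20747 in the lead. PSB27-H2, linked in Arabidopsis to maturation of the D1 protein, had 12.9, 22.01, 8.92, 6.68 and 15.4 FPKM. Its leading unigene, CL19337.Contig1, had 12.1, 15.3, 8.63, 3.59 and 11.2 FPKM and was one of the 2 members of at least 10 FPKM with the lowest SFS to YA ratio (-0.12 on the log2 scale). PSB28, Ycf3 and Ycf4, the last 2 of which are PSI assembly factors encoded in the plastid, were listed at 0 in YA to SFS.

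Single unigenes were then counted against all unigenes of the table at a ratio of 2-fold or more on log2(FPKM + 0.1), where 1 or both libraries reached an FPKM of 1. SFS was higher than YA in 19 of 35 members, against 29.1% of all unigenes, and lower in 1, against 46.8%. SFS was higher than FBS in 16 of 40 members, against 29.1%, and lower in 5, against 35.8%. FBS was higher than EFS in 8 of 39 members and lower in 8, against 33% and 32.5% of all unigenes, so neither direction stood above the background. VCA was higher than YA in 7 of 35 (background 30%) and lower in 3 (31.8%). EFS was higher than VCA in 4 of 35 (28%) and lower in 4 (38.3%).

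Many unigenes of the table have low FPKM, so the counts were repeated where 1 or both libraries reached 50 FPKM, a filter chosen after seeing the data. SFS was then higher than YA in 13 of 21 members and lower in 0, against 32.2% and 34.9% of all unigenes. SFS was higher than FBS in 11 of 21 members and lower in 0, against 20.9% and 20.3%. VCA was higher than YA in 3 of 20 (13.3%) and lower in 0 (12.2%), and EFS was higher than VCA in 0 of 20 (21.7%) and lower in 1 (23.4%). FBS was higher than EFS in 0 of 18 and lower in 3, against 21.8% and 23.3%. The members therefore exceeded the background in SFS over YA and over FBS but not in FBS over EFS. The median log2 ratio of SFS to YA was 1.04 over the 35 members and -0.78 over all 69437 unigenes. With an FPKM of at least 50 it was 1.05 for 21 members, -0.08 for 3846 unigenes and 0.43 for 412 other unigenes with a chloroplastic name. In SFS over FBS, the same medians were 1.02, -0.06 and 0.36. In FBS over EFS they were -0.45, -0.03 and -0.42, so the members were close to other chloroplastic names there.

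Among 41 members that reached an FPKM of 1, 24 were highest in SFS, against 16.4% of all unigenes. With an FPKM of at least 50, 17 of 22 members were highest in SFS, against 23.9%, and 12 of 22 were lowest in FBS, against 18.4%.

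The other lists of the photosynthetic pathway, taken by Swiss-Prot name, were set beside the members. The 80 light-harvesting chlorophyll a-b binding unigenes had a summed FPKM of 6047 at YA, 9036 at VCA, 6357 at EFS, 2997 at FBS and 10753 at SFS. Like the photosystem sums they were lower in FBS than in EFS, at 0.471-fold, and higher in SFS than in FBS, at 3.59-fold. The light-harvesting sum was 1.61-fold the structural subunits at YA, 2.02-fold at VCA, 1.35-fold at EFS, 0.881-fold at FBS and 1.42-fold at SFS. CL5355.Contig9 led the list with 2479, 3956, 2336, 859 and 4665 FPKM in the 5 stages. In SFS over YA, 11 of 37 were 2-fold higher and 2 were lower, against 29.1% and 46.8% of all unigenes. The count of higher unigenes was thus near the share of the whole table, and the median log2 ratio was 0.81. These shares are also the background for the SFS over YA counts of the lists below.

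Electron carriers between and after the photosystems were described by their sums. Cytochrome b6f and plastocyanin, which link PSII to PSI, had 630, 807, 754, 416 and 953 FPKM in YA, VCA, EFS, FBS and SFS, and plastocyanin (Unigene24031) alone had 344, 455, 357, 154 and 462 FPKM. Ferredoxin and its NADP reductase, on the acceptor side of PSI, had 1576, 1743, 1782, 2000 and 2912 FPKM. The chloroplast ATP synthase had 493, 572, 686, 718 and 1262 FPKM. Plastocyanin had its lowest value in FBS. The sums of ferredoxin with its reductase and of the ATP synthase were each higher at every later stage, but their FBS values rested on few unigenes. CL15884.Contig2 (ferredoxin-2) had 1325 FPKM in FBS, against 992 in EFS, and CL20893.Contig2 (ATP synthase delta chain) had 281 FPKM in FBS, against 74.0 in EFS. Without the 2 most abundant unigenes of each list, FBS was 0.605-fold of EFS for ferredoxin with its reductase, 0.700-fold for the ATP synthase and 1.11-fold for cytochrome b6f and plastocyanin. Over single unigenes, the median log2 ratio of FBS to EFS was -0.28 for ferredoxin and its reductase (1 of 12 was 2-fold higher and 2 lower) and 0.06 for the ATP synthase (2 of 12 higher and 2 lower). Of all unigenes, 33% were 2-fold higher and 32.5% lower in FBS over EFS. In SFS over YA, 1 of 6 cytochrome b6f and plastocyanin unigenes was 2-fold higher and 2 were lower. Of the ferredoxin or reductase unigenes, 3 of 12 were higher and 0 lower. Of the ATP synthase unigenes, 7 of 14 were higher and 4 lower. The shares of all unigenes were 29.1% higher and 46.8% lower. The NDH complex and PGR5, which return electrons around PSI, had 336, 319, 623, 614 and 776 FPKM, and 5 of 13 were higher and 1 lower.

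The Rubisco small subunit and Rubisco activase had 4338, 4226, 6612, 2653 and 7311 FPKM. In SFS over YA, 10 of 31 unigenes were 2-fold higher and 6 lower, against 29.1% and 46.8% of all unigenes. Rubisco was 0.974-fold in VCA over YA and 1.56-fold in EFS over VCA, where light harvesting was 1.49-fold and 0.704-fold. CL1613.Contig2 (small chain) had 1123, 990, 2127, 939 and 2324 FPKM and was lowest in FBS.

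Chlorophyll synthesis differed less. Its 59 unigenes had 744, 947, 854, 822 and 963 FPKM, and SFS was 1.30-fold higher than YA. In SFS over YA, 9 of 27 unigenes were 2-fold higher and 9 lower, against 29.1% and 46.8% of all unigenes. Chlorophyll breakdown, by contrast, had 406, 256, 698, 772 and 1246 FPKM, a 3.07-fold difference between SFS and YA. Here 20 of 32 unigenes were higher and 3 lower, against the same shares of all unigenes. CL29336.Contig4 (NYC1, a chlorophyll b reductase that opens the breakdown of light-harvesting complexes) had 42.5, 33.5, 106, 216 and 346 FPKM. Breakdown and photosystem transcripts were thus both at their highest level in SFS. The senescence list held 9 unigenes with summed FPKM of 7.34, 8.01, 3.34, 6.20 and 10.1, too low to serve as a marker here.

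FtsH and Deg proteases include those that remove damaged D1 protein from PSII. The list had 604, 743, 645, 1336 and 1367 FPKM in YA, VCA, EFS, FBS and SFS, and its sum was 2.07-fold higher in FBS than in EFS. CL4274.Contig2 (FTSH) had 76.0, 120.0, 149, 466 and 492 FPKM, and CL9799.Contig2 (FTSH 2) had 110, 162, 117, 315 and 293 FPKM. Both were higher in FBS than in EFS, where the nucleus-encoded structural PSII subunits were lower and CP47 and HCF136 were higher. Without these 2 unigenes the sum was 1.46-fold higher in FBS than in EFS. Over single unigenes, 14 of 54 were 2-fold higher in FBS over EFS and 20 lower, against 33% and 32.5% of all unigenes. Their median log2 ratio was -0.28, so the median unigene did not share the direction of the sum. In SFS over YA, 14 of 52 were higher and 15 lower, against 29.1% and 46.8% of all unigenes. The 5 unigenes of the GLK factors, which activate nuclear photosynthesis genes in Arabidopsis, had 36.2, 25.5, 22.8, 19.2 and 17.2 FPKM. This was the only pathway list whose sum was lowest in SFS, at 0.475-fold of YA, and 0 of 3 unigenes were 2-fold higher and 1 was lower.

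**Figure D4:**
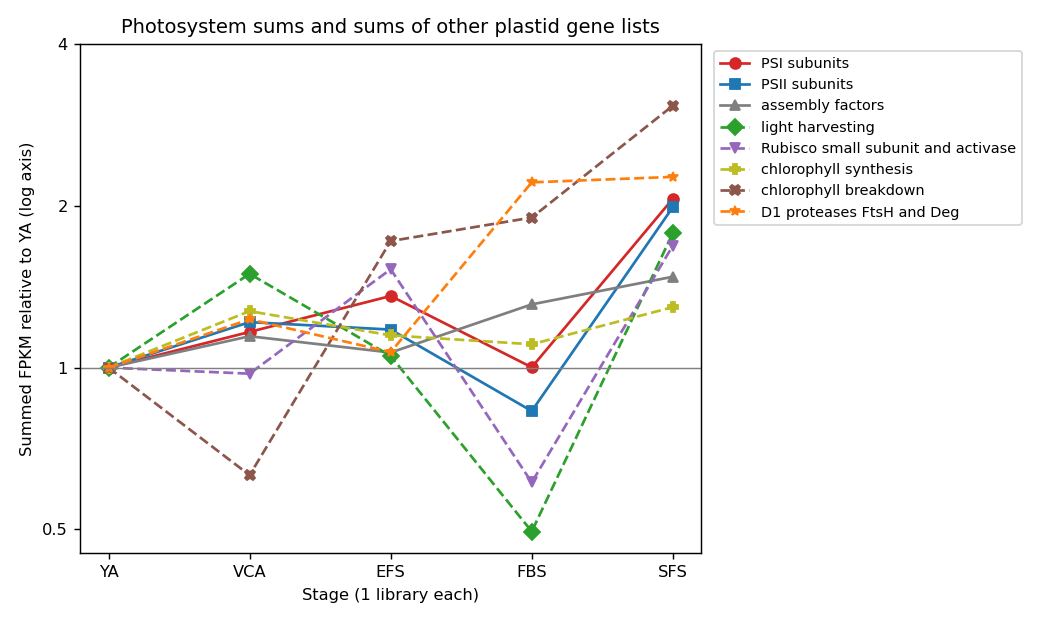
Summed FPKM relative to YA (vertical, log axis) by stage for PSI, PSII and assembly factors (solid lines) and for 5 other lists (dashed lines), 1 library per stage. In SFS chlorophyll breakdown is at 3.07-fold of YA, PSI at 2.06-fold, PSII at 1.99-fold and assembly factors at 1.48-fold, and light harvesting has the deepest low point in FBS.

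The FBD library contained photosystem transcripts on other unigenes. All members summed to 2603 FPKM in FBD, with 1031 for PSI, 1403 for PSII, 56.9 for PsbS and 111 for assembly factors, but 98.9% of this was carried by unigenes whose FBD level was at least 20-fold the mean of YA to SFS. Such unigenes numbered 40 of the 74 members with at least 1 FPKM on the higher side, against 52.1% of all unigenes, and 31 were 20-fold or more lower, against 46.4%. The split was therefore close to that of the whole table. A ratio of FBD to another stage was not read as a change of a gene.

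Of the FBD-side members, 19 had at least 50 FPKM in FBD, between 54.5 and 291, and none of these exceeded 0.55 FPKM in any of YA to SFS. On the other side, the 22 members of at least 50 FPKM had between 0 and 2.97 FPKM in FBD, at most 2.66% of their mean over YA to SFS and 0.412% in the median. A total of 20 subunits had members on both sides. The PsaL unigene of FBD, Unigene131055, for example had 176 FPKM in FBD and at most 0.48 FPKM elsewhere. Best matches of both sets were proteins of other flowering plants, most often Nelumbo nucifera. For plastid-encoded members the matched species differed. In YA to SFS, CP47 (Unigene7097) and PsaA (CL7029.Contig7) matched Berberis bealei, PsbH matched Ranunculus macranthus and PsaJ matched Beta vulgaris. On the FBD side, CP47 matched Conium maculatum, D2 Parthenium argentatum, PsaC Rheum palmatum and PsbK Asparagus officinalis. The Ycf3 unigenes of that side matched Eucalyptus grandis and Cynara cardunculus. Members placed on neither side because of low FPKM matched further species, such as Glycine max for CP47 (CL20482.Contig1) and Clematis terniflora for PsaA (CL7029.Contig4). Whether the FBD library comes from the same plant material was not tested.

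The 5 most abundant members in FBD were CL3262.Contig5 (CP47) with 291 FPKM, Unigene148419 (PsbR) with 215, Unigene138568 (PsaE) with 197, Unigene131055 (PsaL) and Unigene151384 (PsaH) with 167. Plastid-encoded PSII subunits were at 313 FPKM in FBD, against 25.8 at YA, 30.3 at VCA, 29.5 at EFS, 33.9 at FBS and 38.0 at SFS, and nearly all of the FBD value was CP47. PsaH was at 168 FPKM in FBD, nearly all on Unigene151384 (E-value of 4.6e-62), which also carried its 0.39 FPKM in YA. Its 4.35 FPKM in SFS lay on the weaker matches Unigene7867 and CL9526.Contig2 (E-values of 1.4e-09 and 1.2e-11). These PsaH values were thus not read as a change of a gene. The plastid-encoded D2 (9.09 FPKM), PsbK (12.4), PsaC (6.5) and Ycf3 (14.6), as well as the nucleus-encoded PSB28 (15.6), were found at FBD and listed at 0 in YA to SFS. PsaA, in contrast, was at 2.23 FPKM in FBD. Its contigs share the cluster CL7029 with the D2 contig, so the division of reads among them is uncertain. Within the FBD library, the ratio of PSI to PSII was 0.735, with the 291 FPKM of the CP47 unigene counted in PSII. Over nucleus-encoded subunits it was 0.938, within the range of 0.759 to 0.942 over YA to SFS. The ratio of structural subunits to assembly factors was 21.9.

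**Figure D5:**
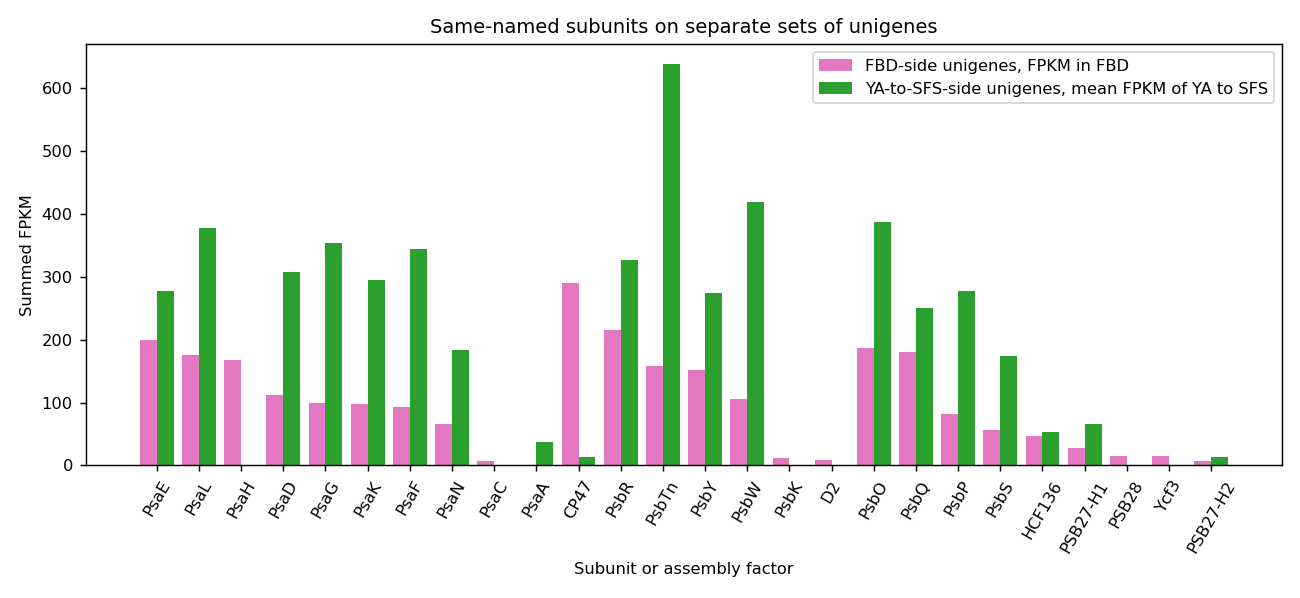
Bars give, for each subunit or assembly factor (horizontal axis), the summed FPKM (vertical axis) of FBD-side unigenes in FBD (pink) and, beside it, the mean over YA to SFS of the summed FPKM of unigenes on the YA to SFS side (green), shown where either reaches an FPKM of 5. Most subunits have both bars, PsaH, PsaC, PsbK, D2, PSB28 and Ycf3 have no visible bar on the YA to SFS side, and PsaA has none on the FBD side.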

How the data were processed

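Floral organs were sampled at 6 stages, with 1 RNA-seq library each. The authors assembled reads with Trinity, clustered contigs into unigenes, matched them to protein databases and calculated FPKM with RSEM; the deposited FPKM table gives 2 decimals per unigene and library. Versions, read numbers and library selection: not given in the sources used here. Column names gave the stage of each FPKM column, and 0 columns were left out. 2 lines without values were dropped. Members and lists were taken by Swiss-Prot name and were chosen with earlier results of these data known. Log2 ratios used FPKM + 0.1 where 1 or both libraries reached an FPKM of 1, and 2-fold was the threshold. With 1 library per stage no p-value was calculated. FBD was kept apart by a 20-fold side rule. Subunits with a summed FPKM of at least 10 were named, with leading unigenes of the 5 most abundant subunits per class, the extreme SFS to YA ratios, the 5 highest FPKM in FBD, all assembly factors and 2 unigenes per list. Further contigs of PsaA, PsaN, PsbY and CP47 were named after their values were seen. Alternatives were pseudocounts, filters, scalings, match strength and sums without the top unigene. The step that calls 2-fold ratios was tested with larger known changes put into the YA values. The other steps were not tested in this way. Python 3.11.15, numpy 2.4.6, pandas 2.3.3 and matplotlib 3.10.9 were used.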

Additional observations from a re-analysis of the deposited data

How the results depend on the processing

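No value that had passed 2-fold turned its direction. Of the alternative values, 119 were rated the same as the main value, 39 moved, 9 stronger and 3 weaker. The 119 include small values whose sign turned, such as those of the ATP synthase and of NDH with PGR5. Below 2-fold, directions did turn. In FBS over EFS, division by actin gave log2 ratios of 0.10 for PSI and 0.04 for PSII, against -0.44 and -0.50 as deposited. The change of PSI over PSII between SFS and YA was -0.04 without the most abundant unigene of each class, against 0.05. Leaving out HCF136 or the 2 leading unigenes of a list, chosen after seeing the data, turned the FBS to EFS direction of the assembly factors, of ferredoxin with its reductase, of the ATP synthase, of NDH with PGR5 (0.45 against -0.02) and of cytochrome b6f with plastocyanin (0.15 against -0.86). For SFS over YA on the log2 scale, division by the median ratio of all unigenes (a common shift of 0.46) gave 1.45 for PSII, 1.40 for the oxygen-evolving enhancers and 1.02 for assembly factors. Division by summed actin (a shift of 0.96) gave 2.004 for PSI, 1.95 for PSII, 1.91 for the enhancers, 1.52 for assembly factors and 2.01 for the median member. Rescaling to the same total gave 1.03 for PSII. Without the most abundant unigene, PSII was at 1.06 and the enhancers at 1.12, past 2-fold. With a pseudocount of 1, the median member was at 0.94, EFS was higher than VCA in 2 and SFS lower than FBS in 3. After division by actin, FBS was lower than EFS in 4 members, SFS higher than FBS in 26 and lower in 3, and SFS higher than YA in 34. That division shifts all unigenes alike, so these counts do not set the members apart from the table. With no filter, VCA was higher than YA in 14 and lower in 8, EFS higher than VCA in 7 and lower in 10, FBS higher than EFS in 15, SFS lower than FBS in 10, and SFS higher than YA in 29 and lower in 6. With an FPKM of at least 5, VCA was higher than YA in 4 and lower in 1, EFS higher than VCA in 1, FBS higher than EFS in 2, and SFS lower than FBS or YA in 0. Among unigenes above 0 in each stage, FBS was higher than EFS in 4 and SFS lower than FBS in 2. Chosen after seeing the data, a minimum of 50 FPKM gave VCA higher than YA in 3 and lower in 0, EFS higher than VCA in 0 and lower in 1, FBS higher than EFS in 0 and lower in 3, and SFS lower than FBS or YA in 0. Also chosen after seeing the data, matches with an E-value of 1e-10 or less gave VCA lower than YA in 1, FBS higher than EFS in 3, and SFS lower than FBS or YA in 0. Fewer unigenes were tested under the stricter filters, and the share of members called could fall as well. In FBS over EFS, for example, 8 of 39 were higher at a minimum of 1 FPKM and 0 of 18 at 50 FPKM. Except for the minimum of 50 FPKM, the share of all unigenes under these settings is not given. The counts therefore show how the calls depend on the setting, and no result about the members is drawn from them. No name held the other spelling of the chlorophyll-binding proteins, so that alternative changed nothing. No paired analysis was possible because each stage has 1 library. Read depth is unknown, so the precision of low FPKM cannot be given.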

Other observations

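KEGG orthology placed 42 further unigenes without a photosystem name in Swiss-Prot among photosystem proteins, and those named here were chosen after their values were seen. PsaO, a small PSI subunit beside PsaL, was found on Unigene33557 with 163 FPKM at YA, 206 at VCA, 207 at EFS, 136 at FBS and 423 at SFS. It was lowest in FBS and 2.59-fold higher in SFS than in YA, and it had 0.82 FPKM in FBD.

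Another 34 of the 42 had PsbP or PsbQ orthology and included PsbP-like, PsbP domain-containing and PsbQ-like proteins, some of which act outside the oxygen-evolving complex. Their summed FPKM was 150.3 at YA, 201 at VCA, 157 at EFS, 112 at FBS and 185 at SFS. They were lowest in FBS like the enhancers, but the highest stage was VCA. Unigene12057, in contrast, whose Swiss-Prot match is ycf37, had 14.2, 24.7, 11.0, 30.6 and 40.7 FPKM and was higher in FBS than in EFS. D1, the PSII reaction-centre protein that the FtsH proteases turn over, was at 3.39 FPKM in FBD and at 0 to 1.22 FPKM over YA to SFS on Unigene3894.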
